A study of Macaca mulatta with 16 samples.

Results

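Bacterial lipopolysaccharide (LPS) is sensed by a short chain of proteins, and the lung RNA of 10 genes that encode this chain was followed here across 16 fetal rhesus macaques. The genes are the receptors TLR4 and TLR2, the LPS carriers CD14, LY96 and LBP, the adaptors MYD88, TIRAP and TICAM1, and the kinases IRAK1 and IRAK4. They were chosen by symbol, and each symbol matched 1 Ensembl identifier of the 22515 in the table: ENSMMUG00000009112 for TLR4, ENSMMUG00000015847 for TLR2, ENSMMUG00000010007 for CD14, ENSMMUG00000003018 for LY96, ENSMMUG00000007563 for LBP, ENSMMUG00000000995 for MYD88, ENSMMUG00000051458 for TIRAP, ENSMMUG00000014163 for TICAM1, ENSMMUG00000018703 for IRAK1 and ENSMMUG00000000204 for IRAK4. All 10 were among the 19192 genes that passed a filter on low counts and were tested. LBP reached the minimum of 0.371 CPM (counts scaled to a common library size) in 2 animals, which belonged to the group sampled 16 hours after LPS, so its difference from the other groups was part of the reason it was tested.

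In the textbook account of this pathway, LBP picks up LPS in body fluids and passes it to CD14, and CD14 hands it to LY96 (MD-2), the small protein that sits on TLR4 and binds the lipid. Engaged TLR4 recruits TIRAP and MYD88 at the cell surface, which assemble a complex with IRAK4 and IRAK1 and lead to NF-kappaB, and it recruits TICAM1 (TRIF) from endosomes, which leads to interferon genes. TLR2 recognises bacterial lipopeptides, uses TIRAP and MYD88, and is best known, like CD14 and TLR4, from monocytes, macrophages and neutrophils.

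Whole lung was sequenced from 5 groups, with 1 library per animal. Of the 16 fetuses, 4 were untreated preterm controls (animals 092, 101, 113 and 209, delivered at 131 to 135 days of gestation) and 2 were untreated term controls (200 and 201, delivered at 156 and 157 days). In the LPS 16h group, 4 fetuses (026, 029, 035 and 038) were delivered 16 hours after 1 mg of LPS was injected into the amniotic fluid at 129 to 130 days. In the LPS 5d group, 3 fetuses (239, 240 and 242) received the same injection at 126 to 129 days and were delivered 5 days later. In the LPS + Beta-Ac 5d group, 3 fetuses (248, 249 and 255) received it at 126 to 127 days, their dams were given 0.125 mg/kg of betamethasone acetate (Beta-Ac), a corticosteroid, by intramuscular injection, and delivery followed after 5 days. The controls had no injection, fetuses whose dams had Beta-Ac alone were not analysed here. Neither sex nor batch was labelled. The tissue was whole lung, and surfactant and other lung epithelial markers summed to 6776 CPM or more in every animal. In such bulk tissue, fewer cells of a type and less RNA per cell cannot be told apart.

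Total counts ranged from 30596371 to 48052891 in the LPS 16h libraries and from 20169363 to 28348816 in the other 12, so library depth and the LPS 16h group cannot be told apart. Results that use the controls were also computed without preterm control 209 and term control 200. Below, levels are CPM after TMM scaling, a trimmed-mean correction of library size, and they are compared between groups and not between genes, because gene length was not accounted for. Changes were tested with limma on log2 CPM across all genes, and a gene was called when its Benjamini-Hochberg adjusted p was below 0.05 and its change was at least 2-fold. The comparisons with preterm controls share the same 4 controls, and both comparisons with LPS 5d share the same 3 animals.

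At 16 hours after LPS, 6 of the 10 genes were called higher than in preterm controls and 0 lower, against 8.33% of all tested genes called higher and 6.06% called lower. Without LBP the count was 5 of 9. The median log2 change of the 10 genes was 1.53, and that of all tested genes was -0.087. CD14, TLR4 and TLR2 rose by more than 10-fold, MYD88 and TICAM1 by between 2-fold and 3-fold, and LBP, at 0 in the controls, has only a lower bound, given below. Scaling to total counts in place of TMM moved the median of all genes to -0.29 and the share of called genes that were higher from 57.9% to 39.4%, and it left the same count of 6 called members.

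CD14, the membrane-anchored co-receptor that loads LPS onto the receptor complex, was measured at 28.7, 30.1, 30.4 and 43.5 CPM in preterm controls 092, 101, 113 and 209. In the LPS 16h animals 026, 029, 035 and 038 it stood at 526, 640, 642 and 440 CPM. The groups did not overlap, and the lowest LPS 16h animal lay far above the highest control. The change was 17.0-fold (95% interval 12.8 to 22.4; log2 4.08, SE 0.19), with an adjusted p of 6.38e-10.

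TLR4, the signalling receptor for LPS, was measured at 6.19, 5.41, 4.26 and 4.04 CPM in the preterm controls and at 103, 55.4, 62.4 and 51.1 CPM in the LPS 16h animals. Animal 026 was highest, and the remaining 3 lay close together. TLR4 rose 13.1-fold (interval 9.32 to 18.5; log2 3.72, SE 0.23, adjusted p = 1.14e-08). TLR2, the receptor for lipopeptides, went from 6.19, 5.04, 9.58 and 7.42 CPM to 132, 53.3, 70.1 and 95.2 CPM in the same order of animals. Its rise was 11.95-fold (interval 7.88 to 18.1; log2 3.58, SE 0.28, adjusted p = 1.49e-07), and animal 026 again had the highest level.

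LY96, whose protein forms the LPS-binding pocket of the TLR4 complex, was counted sparsely and did not pass the test at 16 hours. Its counts were 28, 9, 52 and 39 in the preterm controls (1.22, 0.416, 1.84 and 1.42 CPM). In the LPS 16h animals they were 78, 69, 75 and 65 (2.77, 1.84, 1.75 and 1.89 CPM). The groups overlapped, the estimate was 1.81-fold with an interval from 0.989 to 3.33, and the adjusted p was 0.113. A rise of TLR4's size in LY96 therefore lay outside its interval, whereas an unchanged level lay inside it.

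LBP, the soluble carrier known mainly as an acute-phase protein of the liver, had 0 counts in each of the 4 preterm controls. The LPS 16h libraries held 5, 12, 20 and 25 counts in animals 026, 029, 035 and 038, or 62 in all. Against the level that 3 counts over the whole control group would give, the pooled LPS 16h level was at least 14.5-fold higher. The adjusted p was 2.44e-04, and the fitted log2 change moved between 1.69 and 4.48 with the settings used, because it depends on the prior count. Without animal 035 or 038, LBP no longer passed the filter on low counts, and the number of called members was 5. Of the hepatocyte markers, ALB, APOA1 and TTR had mean levels of 1.55, 0.654 and 1.28 CPM at 16 hours and were not called, and SERPINA1, an inhibitor of neutrophil elastase, went from 79.2 ± 57.1 to 384 ± 123 CPM (SD, n = 4 each) and was called higher.

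Of the adaptors, MYD88 and TICAM1 rose at 16 hours and TIRAP was not called. MYD88, which links the receptor to the IRAK kinases, went from 46.8, 33.6, 40.2 and 35.1 CPM to 100.4, 117, 118 and 106 CPM, a 2.85-fold change (interval 2.43 to 3.34, adjusted p = 4.91e-08). TICAM1, the adaptor of the MYD88-independent branch, went from 10.2, 13.2, 8.58 and 13.5 CPM to 30.7, 30.3, 36.9 and 34.8 CPM, a 2.94-fold change (interval 2.30 to 3.77, adjusted p = 3.71e-06). In neither gene did the groups overlap. TIRAP, the bridging adaptor that brings MYD88 to the membrane, stood at 28.1, 24.1, 25.9 and 27.2 CPM in the controls and at 27.4, 15.4, 22.3 and 24.4 CPM in the LPS 16h animals. Its estimate was 0.833-fold (interval 0.664 to 1.05, adjusted p = 0.193). With scaling to total counts, where all genes shift down, its log2 change was -0.47 at an adjusted p of 0.0325, still short of 2-fold.

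The kinases IRAK4, which starts the cascade, and IRAK1, its substrate, were higher in every LPS 16h animal than in any preterm control, by less than the 2-fold limit. IRAK1 ranged from 53.5 to 62.7 CPM in the controls and from 75.2 to 95.1 CPM at 16 hours (1.43-fold, interval 1.204 to 1.70, adjusted p = 2.63e-03). IRAK4 ranged from 31.3 to 36.0 CPM and from 43.8 to 54.7 CPM (1.45-fold, interval 1.25 to 1.68, adjusted p = 6.59e-04). Counted by the adjusted p alone, 8 of the 10 genes were higher, where 18.7% of all tested genes were. LBP, which passed the filter only through LPS 16h animals, is among the 8. The plot of levels by animal shows the larger steps in the receptors and CD14 and the smaller ones in the kinases.

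**Figure D1:**
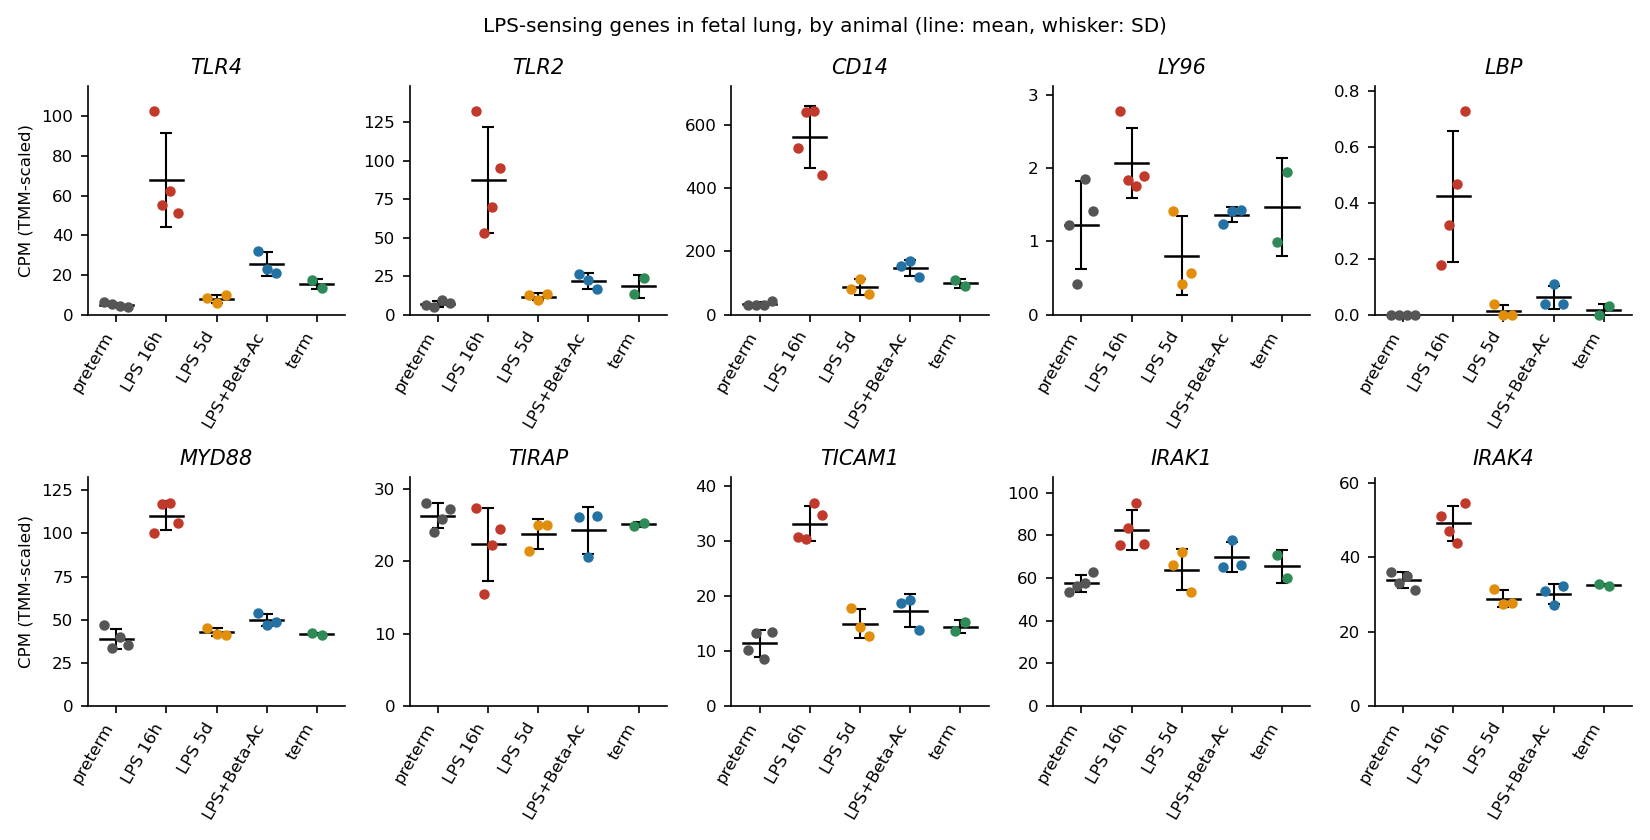
Levels of the 10 LPS-sensing genes in TMM-scaled CPM (vertical axis, starting at 0 in each panel) for the 5 groups on the horizontal axis; each point is 1 animal, the horizontal line is the group mean and the whisker is the SD. TLR4, TLR2, CD14, MYD88, TICAM1, IRAK1 and IRAK4 show the 4 LPS 16h animals above all 4 preterm controls, whereas TIRAP and LY96 overlap and LBP is at 0 in the preterm controls.

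At 5 days after LPS, CD14 was the single gene of the 10 that was called higher than in preterm controls, where 2.60% of all tested genes were called higher and 2.24% lower. CD14 stood at 81.7, 114 and 64.1 CPM in animals 239, 240 and 242, all above the highest preterm control at 43.5 CPM. It was 2.57-fold higher (interval 1.90 to 3.47; log2 1.36, SE 0.20, adjusted p = 6.81e-04). TLR4 was measured at 8.31, 5.95 and 9.73 CPM, and TLR2 at 12.5, 9.21 and 13.4 CPM, and both ranges overlapped those of the controls. Their estimates were 1.59-fold (interval 1.10 to 2.31, adjusted p = 0.0894) and 1.68-fold (interval 1.07 to 2.63, adjusted p = 0.120), and neither passed the test. The adaptors and kinases had estimates between 0.853-fold for IRAK4 and 1.32-fold for TICAM1, with adjusted p values from 0.161 to 0.625. LBP had 1, 0 and 0 counts in the 3 libraries. LY96 had 39, 11 and 12 counts, and its estimate of 0.671-fold came with an interval from 0.348 to 1.29 and an adjusted p of 0.443.

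Set directly against each other, the LPS 16h and LPS 5d animals differed in 7 of the 10 genes, all higher at 16 hours, and 0 were called lower. Of all tested genes 8.06% were called higher at 16 hours and 6.61% lower, and scaling to total counts moved the share of called genes that were higher from 54.9% to 38.0% and the median of all genes from -0.034 to -0.22. TLR4 was 8.26-fold higher (interval 5.70 to 11.97, adjusted p = 3.62e-07), TLR2 7.13-fold (interval 4.54 to 11.2, adjusted p = 5.41e-06) and CD14 6.601-fold (interval 4.88 to 8.92, adjusted p = 1.50e-07). MYD88 was 2.58-fold higher (adjusted p = 5.22e-07) and TICAM1 2.23-fold (adjusted p = 1.64e-04). The TICAM1 call was lost with scaling to total counts, where its log2 change of 0.96 fell just short of 2-fold.

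LY96 and LBP made up the rest of the 7. LY96 was 2.70-fold higher at 16 hours (interval 1.40 to 5.21, adjusted p = 0.0202), on 65 to 78 counts against 11 to 39. That call did not survive leaving out LPS 16h animal 026 (adjusted p = 0.0536), LPS 5d animal 240 (adjusted p = 0.108) or LPS 5d animal 242 (adjusted p = 0.0734). LBP was called on 62 counts against 1 (adjusted p = 9.49e-04), and without it the count was 6 of 9. IRAK4 and IRAK1 were 1.70-fold and 1.30-fold higher at 16 hours (adjusted p = 6.74e-05 and 0.0299). That brings the count by adjusted p alone to 9 of 10, where 19.4% of all tested genes were higher. Among the 9 is LBP, which passed the filter only through LPS 16h animals. TIRAP was the 1 member not higher by adjusted p, at 0.922-fold (interval 0.722 to 1.18, adjusted p = 0.623).

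When the dams also received Beta-Ac, the receptors and CD14 stood above preterm controls at 5 days, and 3 of the 10 genes were called higher, where 4.05% of all tested genes were called higher and 2.44% lower. TLR4 measured 32.3, 23.2 and 20.8 CPM in animals 248, 249 and 255, and even the lowest lay well above the highest preterm control at 6.19 CPM. It was 5.04-fold higher (interval 3.48 to 7.30, adjusted p = 3.28e-05). CD14 measured 154, 170 and 120 CPM, a 4.47-fold difference (interval 3.31 to 6.05, adjusted p = 1.08e-05). TLR2 measured 26.5, 22.3 and 16.7 CPM, a 3.10-fold difference (interval 1.98 to 4.87, adjusted p = 1.91e-03). None of these 3 genes overlapped between the groups.

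Among the other genes in this group, MYD88 (53.7, 46.9 and 48.9 CPM) and TICAM1 (18.8, 19.3 and 13.9 CPM) were above all preterm controls by narrow margins, by 1.29-fold (adjusted p = 0.0420) and 1.53-fold (adjusted p = 0.0292). That gives 5 of 10 by the adjusted p alone, where 7.11% of all tested genes were higher. IRAK1, IRAK4 and TIRAP had estimates of 1.21-fold, 0.887-fold and 0.920-fold and did not pass (adjusted p = 0.155, 0.312 and 0.685). LBP had 1, 3 and 1 counts, against 0 in each control. IRAK1 and LBP thus also lay above all preterm controls, IRAK1 at 65.2 CPM or more against 62.7 CPM or less. For MYD88 the lowest animal was at 46.88 CPM and the highest control at 46.83 CPM. How many of all tested genes were separated from the controls in this way was not computed. LY96 stayed within the range of the controls, at 1.24, 1.41 and 1.43 CPM.

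The added effect of Beta-Ac was examined by comparing LPS + Beta-Ac with LPS alone at 5 days. TLR4 was 3.17-fold higher with Beta-Ac (interval 2.13 to 4.71; log2 1.66, SE 0.27, adjusted p = 0.0327), the single called gene of the 10, and the 2 groups of 3 animals did not overlap (20.8 to 32.3 against 5.95 to 9.73 CPM). Only 20 of all tested genes were called in this comparison, all higher, or 0.104%, and TLR4 ranked 8 by p and 10 by fold among them. The call was not stable: leaving out animal 239, 240, 248 or 249 gave adjusted p values of 0.111, 0.167, 0.179 and 0.129, fitting the 2 groups alone gave 0.0881 and limma-voom gave 0.0823, while the log2 change lay between 1.47 and 1.82 in all alternatives. CD14 and TLR2 did not pass: their estimates were 1.74-fold (interval 1.26 to 2.40, adjusted p = 0.284) and 1.85-fold (interval 1.14 to 2.99, adjusted p = 0.713). In both, all 3 animals with Beta-Ac lay above all 3 without it, and the same held for MYD88 and LBP. The share of all tested genes separated in this way was not computed, so the separation is only a description. For the adaptors and kinases the estimates ran from 1.02-fold for TIRAP to 1.17-fold for MYD88, each with an adjusted p of 1, and the MYD88 interval reached from 0.971 to 1.41. The sparsely counted LY96 and LBP had estimates of 1.84-fold (interval 0.912 to 3.71) and 1.59-fold (interval 0.740 to 3.40). Neither passed, and LBP rested on 5 counts with Beta-Ac against 1 without it.

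Advancing gestation without any exposure was examined in the 2 term controls. TLR4 measured 17.3 and 13.5 CPM in animals 200 and 201, CD14 108 and 89.0 CPM, and TLR2 13.2 and 23.7 CPM. Each of these values lay above all 4 preterm controls. The 3 genes were called higher, by 3.09-fold for TLR4 (interval 2.03 to 4.71, adjusted p = 7.80e-03), 2.99-fold for CD14 (interval 2.13 to 4.21, adjusted p = 3.53e-03) and 2.57-fold for TLR2 (interval 1.54 to 4.28, adjusted p = 0.0411), where 1.12% of all tested genes were called higher and 0.954% lower. With 2 animals, these calls leaned on single libraries. Without term control 200, CD14 alone was called, and TLR4 and TLR2 had adjusted p values of 0.0945 and 0.0754. The same single call was left when term control 200 and preterm control 209 were left out together. The TLR2 call was also lost without term control 201 (1.92-fold, adjusted p = 0.291), without preterm control 092 or 101 (adjusted p = 0.0941 and 0.0876), with limma-voom (adjusted p = 0.0896) and with the 2 groups fitted alone (adjusted p = 0.0950). The other 7 genes had estimates between 0.956-fold for TIRAP and 1.28-fold for TICAM1 and did not pass, with adjusted p values of 0.371 or more.

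**Figure D2:**
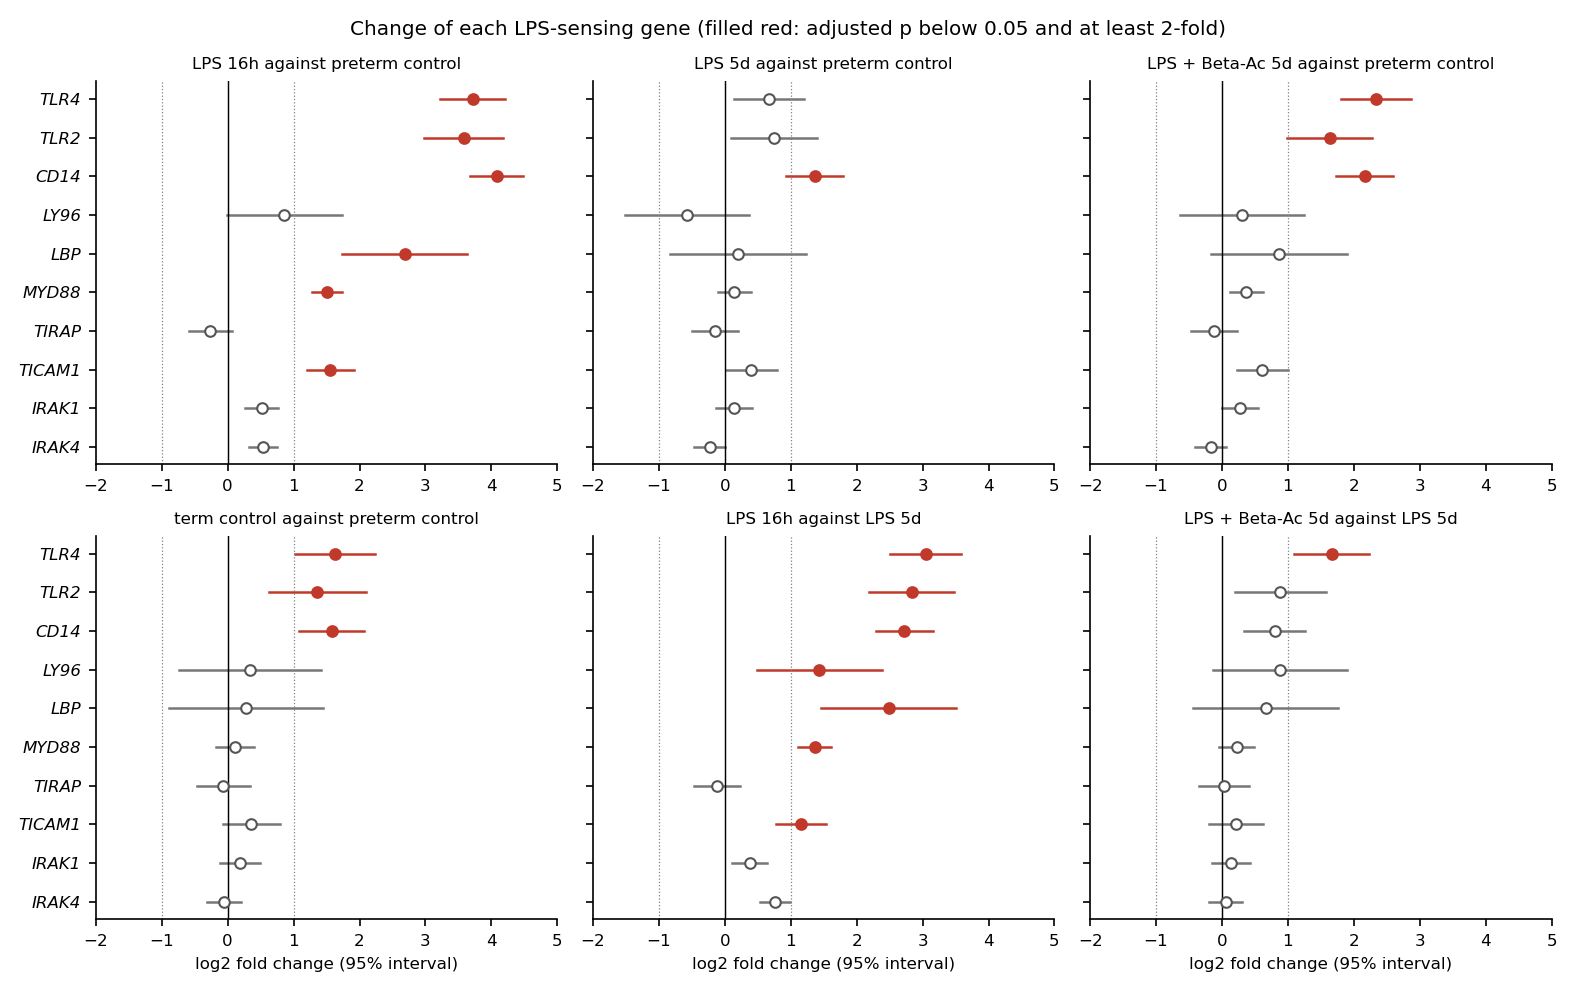
Log2 fold changes of the 10 genes with 95% intervals (horizontal axis) in the 6 comparisons; filled red points passed an adjusted p below 0.05 and a 2-fold change, and dotted lines mark a 2-fold change. TLR4, TLR2 and CD14 are filled in 3 of the 4 comparisons with preterm controls and CD14 alone in the comparison of LPS 5d, whereas TIRAP stays near 0 in all 6.

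The order of the group means was the same for TLR4, TLR2, CD14, LBP and IRAK1: LPS 16h was highest, then LPS + Beta-Ac 5d, term, LPS 5d and preterm controls. Neighbours in that order did not always differ beyond their spread. For TLR4, LPS 5d and preterm controls overlapped and all other neighbours were apart. For CD14, term and LPS 5d overlapped. For TLR2, LPS 16h stood apart from LPS + Beta-Ac 5d, and every later pair of neighbours overlapped. MYD88 and TICAM1 had LPS 16h apart from the next group, and for IRAK1, TIRAP and LY96 all neighbours overlapped. On the log2 scale the group means spanned 4.08 for CD14, 3.72 for TLR4 and 3.58 for TLR2, against 0.76 for IRAK4, 0.52 for IRAK1 and 0.26 for TIRAP.

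The genes of the complex thus changed by unequal amounts, which can be read as ratios of CPM within each animal. These ratios were chosen after the values had been seen, and without gene lengths they can be compared between groups only. MYD88 relative to TLR4 was 6.21 to 9.43 in preterm controls and 0.979 to 2.11 at 16 hours. At 5 days this ratio was 4.20 to 7.01 with LPS and 1.66 to 2.36 with LPS + Beta-Ac, without overlap between them. The animals with Beta-Ac overlapped those of LPS 16h and lay below the term controls at 2.44 and 3.04. LY96 relative to TLR4 was 0.0769 to 0.433 in preterm controls and 0.0270 to 0.0370 at 16 hours. TLR2 relative to TLR4 was 1.38 to 1.55 in the LPS 5d animals and 0.803 to 0.963 with Beta-Ac, without overlap, and CD14 relative to TLR4 overlapped between the groups in all 6 comparisons. Over 9 ratios and 6 comparisons, two-sided exact permutation tests gave 13 of 54 values of p under 0.05 and 0 after Benjamini-Hochberg adjustment (lowest adjusted p = 0.119). The smallest p these exact tests allow is 0.0286 for 4 against 4 or 3 animals, 0.0667 for 2 against 4 and 0.100 for 3 against 3, so the last 2 designs cannot reach 0.05.

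Summed markers of leukocytes were higher in every other group than in preterm controls. The monocyte and macrophage sum was highest with LPS + Beta-Ac, unlike TLR4, TLR2 and CD14, and the neutrophil sum was highest at LPS 16h. The 12 monocyte and macrophage markers, which do not include the genes above, summed to 96.3 to 155 CPM in preterm controls, 303 to 459 at LPS 16h, 200 to 276 at LPS 5d, 411 to 771 with LPS + Beta-Ac and 173 to 347 at term. They were called higher than in preterm controls in 9, 6, 11 and 2 of 12 for LPS 16h, LPS 5d, LPS + Beta-Ac 5d and term. MARCO, a scavenger receptor of macrophages, was at 0 in the preterm controls, and the other 11 were detected in every group. The 9 neutrophil markers with a row summed to 30.1 to 61.7 CPM in preterm controls, 1462 to 2219 at LPS 16h, 88.0 to 144 at LPS 5d, 209 to 378 with LPS + Beta-Ac and 135 to 170 at term, and 8, 4, 7 and 5 of 9 were called higher. None of these 9 was at 0 in any group. Of all tested genes, 8.33%, 2.60%, 4.05% and 1.12% were called higher in the same comparisons.

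Relative to the monocyte and macrophage sum, TLR4 stood at 0.0362 to 0.0561 in preterm controls, 0.119 to 0.224 at LPS 16h, 0.0297 to 0.0384 at LPS 5d, 0.0301 to 0.0511 with LPS + Beta-Ac, and 0.0498 and 0.0782 at term. The LPS 16h animals were the highest, 3.94 times the preterm controls (exact permutation p = 0.0286, adjusted 0.119), and LPS 5d, LPS + Beta-Ac and term overlapped with preterm controls. CD14 relative to the same sum was 0.185 to 0.446 in preterm controls, 1.03 to 2.12 at LPS 16h, 0.253 to 0.567 at LPS 5d and 0.221 to 0.292 with LPS + Beta-Ac. The order was different against the neutrophil sum: CD14 per unit of it was 0.281 to 0.360 at LPS 16h and 0.616 to 0.951 in preterm controls. TLR4 per unit of the neutrophil sum was 0.0281 to 0.0702 at LPS 16h and 0.0654 to 0.205 in preterm controls, 0.344 times the controls with overlap (exact permutation p = 0.0571, adjusted 0.206). The levels of TLR4 in LPS + Beta-Ac and LPS 5d animals, 3.17-fold apart, differed by 1.31-fold relative to the monocyte and macrophage sum, with overlap (exact permutation p = 0.30). TLR2 and CD14 went the other way, at 0.764 and 0.718 times LPS 5d relative to that sum. TLR2 was 0.0289 to 0.0418 with LPS + Beta-Ac and 0.0452 to 0.0530 at LPS 5d, without overlap, whereas CD14 overlapped. The sum includes CD163, which was itself called higher with Beta-Ac, at 92.4 ± 30.3 against 23.0 ± 4.10 CPM (SD, n = 3 each). These ratios are therefore not a correction for cell numbers, and the exact test at 3 against 3 animals cannot go below 0.100. The part of leukocyte numbers in the changes above was not tested.

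**Figure D3:**
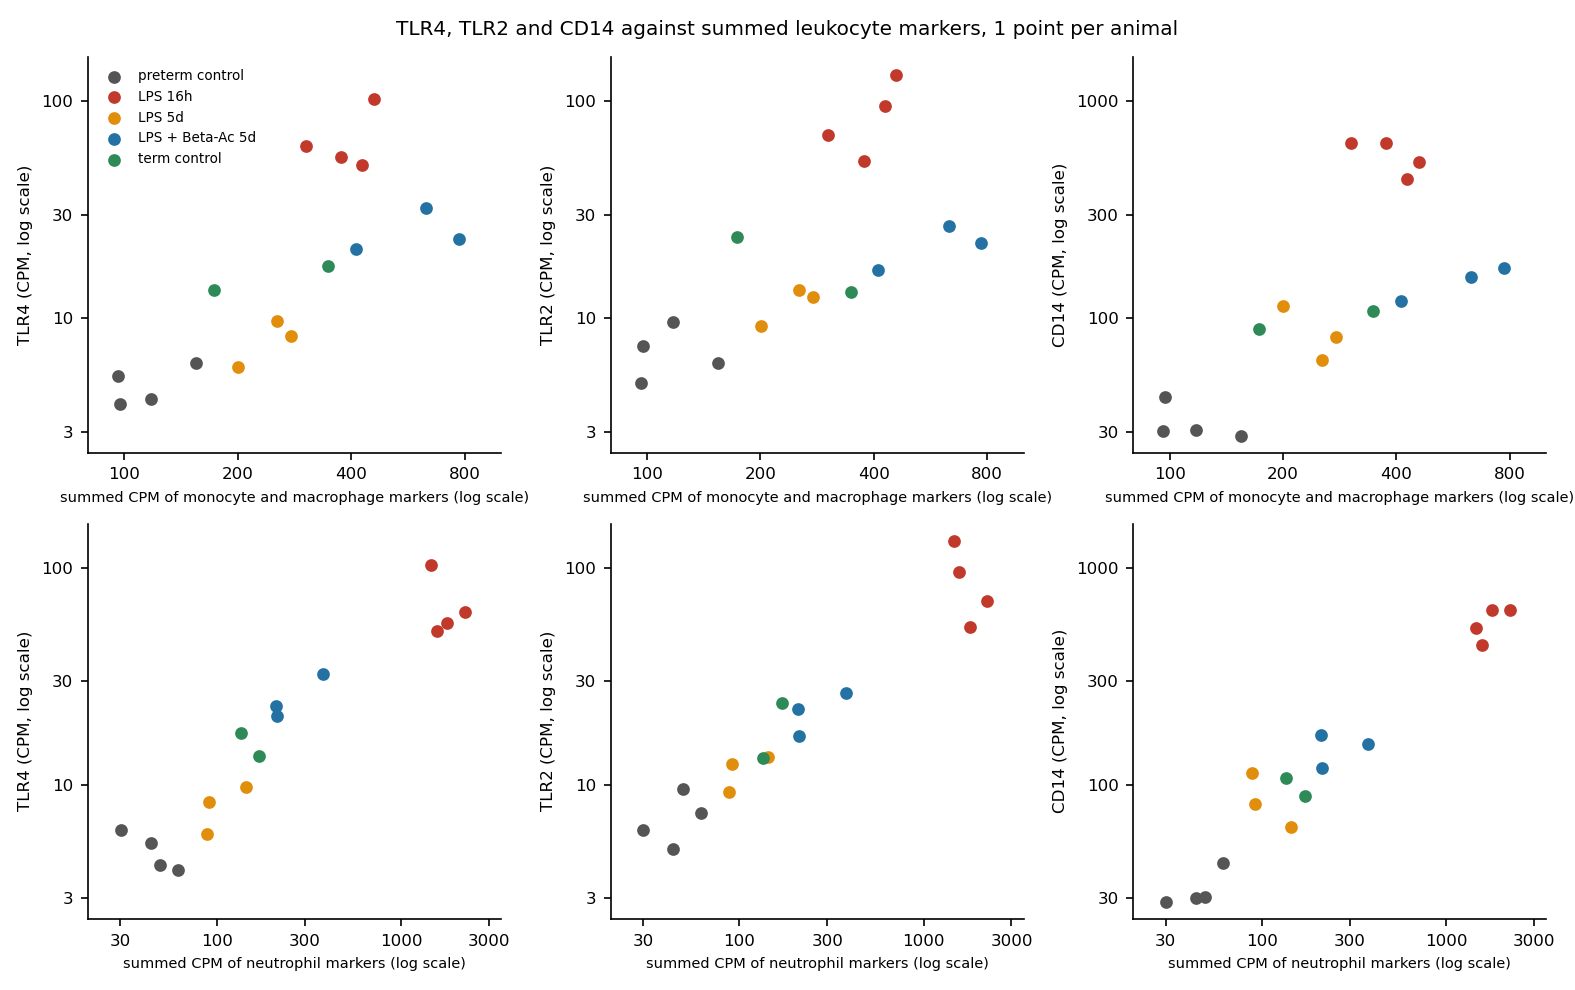
TLR4, TLR2 and CD14 (vertical axes, CPM on a log scale) against the summed CPM of 12 monocyte and macrophage markers (top row) or 9 neutrophil markers (bottom row), both on log scales; each point is 1 animal, coloured by group. In the top row the 4 LPS 16h animals lie above animals of other groups with like marker sums, whereas LPS + Beta-Ac animals reach the highest monocyte and macrophage sums, 411 to 771 CPM.

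Markers of other cell types were read in the same way, beside the same shares of all tested genes called higher. The shares called lower than in preterm controls were 6.06%, 2.24%, 2.44% and 0.954% for LPS 16h, LPS 5d, LPS + Beta-Ac 5d and term. Of 7 lymphocyte markers, 1 was called higher at LPS 16h and 4 with LPS + Beta-Ac, with 0 at LPS 5d and term. Of 7 lung epithelial markers, 0 were called at LPS 16h, 1 was higher at LPS 5d and 2 with LPS + Beta-Ac, and their sum was 6776 to 11007 CPM in preterm controls and 15239 to 27216 CPM at LPS 5d. Of 6 endothelial markers 1 was called lower at LPS 16h and at term, and of 6 mesenchymal markers 1 was lower at LPS 16h, 2 with LPS + Beta-Ac and 3 at term. Of 5 erythroid markers with a row, 1 was lower at LPS 5d. Of 4 hepatocyte markers tested, SERPINA1 was the 1 called higher at LPS 16h, where their sum with FGB was 259 to 556 CPM against 40.2 to 162 CPM in preterm controls, and FGB, which was not tested, was at 0 in both 5-day groups. Between LPS 16h and LPS 5d, 4 monocyte and macrophage, 8 neutrophil and 3 erythroid markers were called higher at 16 hours, and 1 monocyte and macrophage, 2 epithelial, 1 mesenchymal and 1 hepatocyte marker lower. Between LPS + Beta-Ac and LPS at 5 days, 1 monocyte and macrophage marker, CD163, was called higher.

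Genes around the sensing chain were read from 5 lists with 50 measured genes. At LPS 16h, 21 of the 50 were called higher and 1 lower than in preterm controls. Of all tested genes 8.33% were called higher and 6.06% lower. The median log2 change of the 50 was 0.41, and that of all tested genes was -0.087. The counts were 5 higher and 1 lower at LPS 5d, 9 and 1 with LPS + Beta-Ac, 1 and 1 at term, and 20 and 1 between LPS 16h and LPS 5d. In the same order, the shares of all tested genes were 2.60% and 2.24%, 4.05% and 2.44%, 1.12% and 0.954%, and 8.06% and 6.61%. The counts at term were near these shares. In the comparison of LPS + Beta-Ac with LPS at 5 days 0 of 50 were called, where 0.104% of all tested genes were. Some genes named in the next paragraphs are not among those with the largest changes and were added after their values were seen.

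LPS-handling proteins and receptor brakes, the genes that damp the signal, held most of the higher calls at 16 hours, with 6 of 8 in each list. TREM1, a myeloid receptor that amplifies toll-like receptor signals, went from 0.560 ± 0.400 CPM in preterm controls to 116 ± 30.9 CPM (SD, n = 4 each), a log2 change of 7.72 (adjusted p = 6.53e-09). AOAH, the lipase that inactivates LPS by removing its acyl chains, went from 2.25 ± 0.281 to 38.5 ± 6.27 CPM (16.5-fold, adjusted p = 7.76e-09). Both were also called at LPS 5d. The third LPS-handling gene called there was LY86, the partner of the TLR4-like receptor CD180, and LY86 itself was not called at 16 hours (1.24-fold, adjusted p = 0.519). TREM1 and AOAH were called with LPS + Beta-Ac as well, at 27.5 ± 13.2 and 19.9 ± 7.45 CPM (n = 3). TREM1 was the 1 wider-pathway gene called higher at term, at 5.77 and 3.07 CPM in the 2 animals. With LPS + Beta-Ac, ITGB2, the shared chain of the leukocyte integrins, was 3.07-fold higher (adjusted p = 1.36e-03).

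Among the brakes, TNFAIP3 (A20), an enzyme that edits ubiquitin chains on signalling proteins, went from 44.8 ± 1.98 to 587 ± 105 CPM at 16 hours, and was 12.9-fold higher (adjusted p = 3.84e-10). TNIP3, an A20-binding protein, was 16.6-fold higher (adjusted p = 2.75e-06), and IL1RL1 (ST2), the receptor for IL-33, rose from 0.842 ± 0.219 to 9.90 ± 3.41 CPM. At 5 days TNIP3 was the 1 brake still called, at 3.41-fold (adjusted p = 0.0157). TNFAIP3 stood at 54.6 ± 4.11 CPM in LPS 5d animals, and LPS 16h was 10.6-fold higher (adjusted p = 7.18e-09). IL1RL1 and BPI, a neutrophil protein that binds LPS, were also among the genes with the largest excess at 16 hours over 5 days, at log2 changes of 3.28 and 3.33.

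Of the 21 downstream adaptors and kinases, 4 were called higher at LPS 16h: IRAK2, IRAK3, TRAF3 and IKBKE. IRAK2, another IRAK of the MYD88 complex, rose 11.4-fold from 4.44 ± 0.614 to 51.6 ± 9.38 CPM (adjusted p = 5.40e-09), in contrast to the small changes of IRAK1 and IRAK4. It was back at 4.41 ± 1.09 CPM in LPS 5d animals. IKBKE, a kinase that activates interferon regulatory factors, was called at 16 hours (log2 2.77), at LPS 5d (log2 1.10, adjusted p = 6.58e-04) and with LPS + Beta-Ac (log2 1.31). Of the 8 other toll-like receptors, TLR1, TLR7, TLR8 and TLR10 were called higher at 16 hours, and TLR1, which pairs with TLR2, was the 1 called with LPS + Beta-Ac (3.28-fold, adjusted p = 6.95e-05). TLR1 measured 20.8 ± 3.27 CPM at LPS 16h and 3.67 ± 0.766 CPM in preterm controls.

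TRIL, an accessory protein that associates with TLR4 and LPS, went the other way, and was the single gene of the 50 that was called lower in any comparison. Its levels were 176, 110, 147 and 107 CPM in preterm controls 092, 101, 113 and 209 and 17.1, 14.0, 10.001 and 8.49 CPM in the LPS 16h animals 026, 029, 035 and 038. It fell by 3.46 on the log2 scale (SE 0.26, adjusted p = 8.93e-08). In the LPS 5d animals it measured 65.4, 56.4 and 74.7 CPM, with LPS + Beta-Ac 70.3, 35.2 and 59.9 CPM, and at term 33.2 and 52.1 CPM. All of these lay below the lowest preterm control, and the drops were by 1.02, 1.32 and 1.67 on the log2 scale (adjusted p = 0.0227, 4.40e-03 and 0.0116). HSP90B1, the chaperone that folds toll-like receptors, was the 1 of the 5 genes of its list called higher at 16 hours, at 2075 ± 342 CPM against 582 ± 99.7 CPM.

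**Figure D4:**
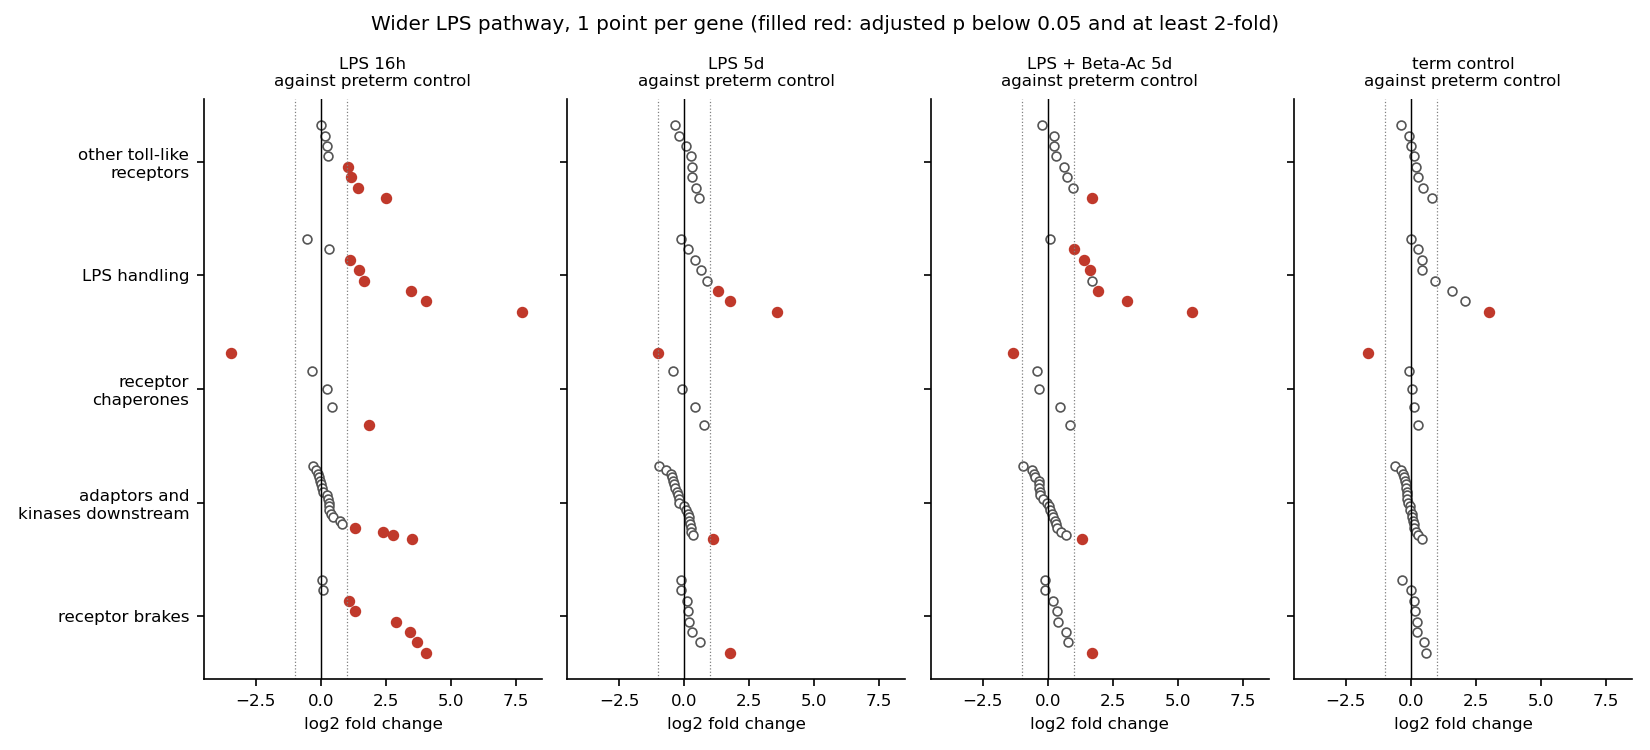
Log2 fold changes against preterm controls (horizontal axis) of the 50 measured genes of 5 wider lists, 1 point per gene, in 4 panels for LPS 16h, LPS 5d, LPS + Beta-Ac 5d and term; filled red points passed an adjusted p below 0.05 and a 2-fold change, and dotted lines mark a 2-fold change. At LPS 16h 21 genes are filled to the right of 0, and the 1 filled point to the left of 0 in each panel is TRIL.

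Genes whose levels followed TLR4, TLR2 and CD14 most closely over the 16 animals were found by the smallest root-mean-square difference of mean-centred log2 CPM, among 15175 tested genes with a symbol. This is a description, since the animals of a group share their treatment. For TLR4 they were ADGRE1, a macrophage adhesion receptor, SIRPB2, PTAFR, the receptor for platelet-activating factor, LCP2 and ITGAM, an integrin chain of myeloid cells, with differences of 0.30 to 0.38 where the median gene lay at 1.501. For CD14 they were FGR, LST1, HMOX1, POU2F2 and FCGR1A, at 0.34 to 0.44. For TLR2 they were FGR, RASGRP1, NLRP3, TREML2 and CD44, at 0.36 to 0.43. FGR, a Src-family kinase of myeloid cells, led the list for both CD14 and TLR2. PTAFR and TLR4 were both among the 20 genes called between LPS + Beta-Ac and LPS at 5 days. PTAFR was picked for its likeness to TLR4 over animals that include these, so the 2 calls are not independent.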

How the data were processed

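Lung RNA of 16 fetal rhesus macaques was analysed, 1 library per animal, grouped by the sample labels. The authors extracted RNA from frozen lung (a column kit in the article, a phenol-based reagent in the labels), selected poly(A) RNA, sequenced 75 bp paired-end reads, assigned them with kallisto to the rhesus build Mmul_10 and summarized them with tximport. For their own comparisons the authors used DESeq2. The deposited values are raw counts in whole numbers, by Ensembl gene and by animal, with 629 of 22515 genes at 0 throughout. Software versions and the annotation release: not given in the sources used here.

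Here the counts were scaled with TMM (trims of 30% and 5%), put on a log2 CPM scale (prior count 2) and fitted with limma 3.58.1 (trend, robust, 5 group means) in R 4.3.3, and no count model was run. Genes needed 0.371 CPM, or 10 counts in the median library, in 2 animals and 15 counts in total. Single-gene p values were two-sided and adjusted over all 19192 genes. They and the intervals rest on the spread between animals within groups, pooled over all 5 groups and drawn towards that of genes at like levels. They do not measure the spread of the 2 compared groups alone, which matters most for the 2 term controls. Symbols were matched by Ensembl identifier (17256 matched, 5259 did not). GBP2, SIGIRR, MNDA, HBB and HP had no matching row, and FGB was not tested. The steps were tested on simulated data. Replicate pairs differed by 31.1 to 166 times counting noise (chi-square per degree of freedom, 19 pairs), so none was counted as a duplicate.

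The 10 genes, the lists and the tests were chosen with earlier results of these data known. From the wider lists, the rule named at most 5 called genes in each direction of a comparison, those with the largest change and no overlap between groups, and the 5 genes most like each of the 3 members with the widest range of group means. Alternatives were median-of-ratios and total-count scaling, no filter, prior counts of 0.5 and 5, fitting only the groups compared, limma-voom, no minimum on the fold change, each animal left out, and, added after the data were seen, animals 209 and 200 left out together. Sequences of these genes were not used here. Some results of single genes are not reported here.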

Additional observations from a re-analysis of the deposited data

Results flagged for a closer look

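In 2 groups of 4 animals, 1 animal stood apart from the other 3 by Dixon's test at 95%. CD14 was at 5.44 log2 CPM in preterm control 209 and between 4.84 and 4.93 in the other 3 preterm controls, a gap of 0.859 of the range of the group. LY96 was at 1.51 log2 CPM in LPS 16h animal 026 and between 0.86 and 0.97 in the other 3, a gap of 0.832 of the range. These came from 20 groups of 4 (10 genes in 2 treatment groups), and chance flags about 1 in 20.

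The change since LPS differed between the times of delivery in 7 genes, or 6 without LBP, by the direct test of LPS 16h against LPS 5d given above. The log2 differences were 3.05 for TLR4, 2.83 for TLR2, 2.72 for CD14, 2.48 for LBP, 1.43 for LY96, 1.37 for MYD88 and 1.16 for TICAM1 (limma, adjusted p from 1.50e-07 for CD14 to 0.0202 for LY96), each higher in 4 of 4 LPS 16h animals than in any LPS 5d animal. LBP passed the filter on low counts only through LPS 16h animals, on 62 counts against 1, and its log2 difference ran from 1.595 to 3.95 over the alternatives. Gestation at injection and library depth also differed between these groups, and their part was not tested.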

How the results depend on the processing

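CD14 was called in all 4 comparisons with preterm controls under every alternative run, and TLR4, TLR2 and MYD88 in LPS 16h against preterm controls likewise. Of the alternative values of single members, 832 kept direction and side of the threshold, 19 lost the call and 11 changed sign or came to 0. The cause was not tested. With no minimum on the fold change, genes called were 7365 (LPS 16h), 2827 (LPS 5d), 3316 (LPS + Beta-Ac) and 766 (term) against preterm controls and 6727 for LPS 16h against LPS 5d, in place of 2762, 928, 1246, 397 and 2816, and 5 members were called for LPS + Beta-Ac. For LPS + Beta-Ac against LPS at 5 days, limma-voom called 3 genes and 0 members, and the fit of only the groups compared called 0 genes and 0 members, against 20 genes and 1 member; at an unadjusted p under 0.05 in limma with all groups, 3 of 10 members and 3.39% of all tested genes were higher. Leaving out 1 animal gave 2 to 57 genes and 0 to 1 members there. For term, genes called were 116 with only the groups compared, 242 (and 1 member) without controls 209 and 200, and 129 to 562 (1 to 3 members) with 1 animal left out. The sign changes were all in genes that were not called. With total counts, term log2 changes were 0.0047 for TIRAP and 0.017 for IRAK4. With 1 animal left out, LY96 ranged from -0.11 to 0.55 for LPS + Beta-Ac and from -0.12 to 0.80 for term, LBP from 0.00 to 0.55 for term, and TIRAP from -0.18 to 0.021 for LPS + Beta-Ac, from -0.22 to 0.049 for LPS 16h against LPS 5d and from -0.049 to 0.14 for LPS + Beta-Ac against LPS at 5 days. No paired analysis was possible because the groups share no replicate numbers. LBP and LY96, at 0 to 25 and 9 to 78 counts per library, limit what depth can show.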
